A study of Mus musculus with 20 samples.

Results

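The genes described here are 9 tubulin genes of the mouse, 4 alpha-tubulins (Tuba1a, Tuba1b, Tuba1c and Tuba4a) and 5 beta-tubulins (Tubb2a, Tubb2b, Tubb3, Tubb5 and Tubb6), out of 36611 genes in the table. They were chosen because the summed transcripts of Tuba1a were much higher on high fat diet, so the diet differences below chose the genes and are given as a description with no test. All 9 genes were in the table, and 8 of them reached a mean of at least 0.5 TPM (transcript abundance corrected for transcript length and scaled to the same total in each library) over the 20 libraries, while Tubb3 did not.

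The tissue was inguinal white adipose tissue (iWAT), a subcutaneous fat depot, and its RNA was sequenced in 4 groups of 5 female C57BL/6 mice that were 6 months old and had been on their diet for 15 weeks. Control mice were littermates with both Tmem120a alleles floxed (Tmem120a fl/fl) and no Cre, and the labels call them wild type. Ad-Tmem120a-/- mice carried the same floxed alleles and Cre driven by the adiponectin promoter, which acts in mature adipocytes, so other cells of the tissue keep the gene. Each genotype was split between a low fat diet with 10.5% fat (LFD) and a high fat diet with 58% fat (HFD), and replicate numbers are those of the labels. The design asks how adipocyte loss of Tmem120a, which encodes a transmembrane protein of the nuclear envelope, and diet alter the tissue's RNA.

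Alpha- and beta-tubulin form the heterodimers from which microtubules are built, and the genes of each class encode closely related proteins. The tail lies on the outside of the microtubule, where enzymes remove and restore the terminal tyrosine of most alpha-tubulins and add chains of glutamate to glutamates of both classes. Cells also hold down their own tubulin output, by degrading tubulin mRNA when free tubulin is plentiful. In fat cells microtubules carry lipid droplets, mitochondria and the vesicles that hold the glucose transporter.

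The ends of the coding sequences of 6 members are shown because they encode the tails on which these modifications fall. Each line holds the last 60 bases of the full-length coding transcript, stop codon included, read 5′ to 3′ on the gene's own strand from GENCODE vM1 (NCBIM37, mm9). In the alpha-tubulins the capitals mark the codon of a terminal tyrosine.

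Tuba1c: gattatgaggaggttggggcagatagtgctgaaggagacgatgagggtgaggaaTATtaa
Tuba4a: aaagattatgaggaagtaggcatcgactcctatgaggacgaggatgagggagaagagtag

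The coding sequence of Tuba1c ended in a tyrosine codon and that of Tuba4a did not. Of the 19 codons before the stop, 6 encoded glutamate in Tuba1c and 7 in Tuba4a. In the beta-tubulins the capitals mark the glutamate codons.

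Tubb2a: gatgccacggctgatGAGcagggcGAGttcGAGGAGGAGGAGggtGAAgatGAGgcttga
Tubb2b: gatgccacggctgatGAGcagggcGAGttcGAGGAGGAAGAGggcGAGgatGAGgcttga
Tubb3: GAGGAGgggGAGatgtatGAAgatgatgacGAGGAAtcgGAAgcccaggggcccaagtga
Tubb5: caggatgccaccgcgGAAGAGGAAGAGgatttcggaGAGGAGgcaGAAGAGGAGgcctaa

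These tails held 8 glutamate codons in Tubb2a and Tubb2b, 7 in Tubb3 and 9 in Tubb5, and none ended in tyrosine. At the other end, Tuba1a, Tuba1b and Tuba1c opened with the same 12 bases, atgcgtgagtgc, Tuba4a with atgcgcgagtgc, and beta-tubulins with bases such as atgcgcgagatc in Tubb2a, the stretch through which a nascent tubulin chain is recognised when its mRNA is degraded.

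Tuba1a (ENSMUSG00000072235) lay at chr15:98780272-98783982 on the minus strand, with Tuba1b (ENSMUSG00000023004) at chr15:98761856-98764996 on the same strand and Tuba1c (ENSMUSG00000043091) at chr15:98860322-98868536 on the plus strand. Tuba4a (ENSMUSG00000026202) was annotated at chr1:75211549-75215828, Tubb2a (ENSMUSG00000058672) at chr13:34166170-34169877, Tubb2b (ENSMUSG00000045136) at chr13:34218877-34222223 and Tubb5 (ENSMUSG00000001525) at chr17:35970871-35975251, all on the minus strand, and Tubb3 (ENSMUSG00000062380) at chr8:125935324-125945915 on the plus strand. Tubb6 (ENSMUSG00000001473) was on chromosome 18.

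The near identity of some members bears on their values below. The coding sequences of Tuba1a and Tuba1b were the same at 98.3% of aligned bases, and of all stretches of 31 bases in the full-length transcripts 65.2% in Tuba1a, 69.5% in Tuba1b and 62.3% in Tuba1c also occurred in a transcript of another gene. Tubb2a and Tubb2b were the same at 96.5% of coding bases and shared 51.9% and 42.7% of such stretches with other genes. For Tuba4a, Tubb3, Tubb5 and Tubb6 the share was at most 3.59%. How reads were split between Tuba1a, Tuba1b and Tuba1c, and between Tubb2a and Tubb2b, is therefore uncertain.

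Libraries held 54605101 to 92387737 estimated counts in total. Tmem120a averaged 85.4 ± 28.4 TPM (SD, n = 5) in control and 41.5 ± 21.9 in Ad-Tmem120a-/- mice on LFD, and 119 ± 44.5 against 51.6 ± 26.7 on HFD. The knockout means were lower on both diets while the ranges overlapped. The fitted log2 difference (edgeR) was -1.61 (SE 0.343) on LFD and -1.67 (SE 0.291) on HFD. The adjusted p of edgeR's quasi-likelihood test was 0.9293 on LFD and 0.1729 on HFD. At an adjusted p under 0.1 the deleted gene itself was thus not called, so the lack of a call does not show the lack of a difference. All 12 adipocyte markers examined were measured, with summed levels of 16295 to 33992 TPM over the 20 libraries. Markers of skeletal muscle fibres varied most, with sums of 45.6 to 4205 TPM.

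Tuba1a, best known from developing neurons, had the highest mean level of the 9 genes and the largest diet difference among them. In the control mice its level was 686, 629, 340.3, 214 and 433 TPM on LFD and 4030.1, 2514, 2464, 1752 and 2991 TPM on HFD (replicates 1 to 5 and 11 to 15). The Ad-Tmem120a-/- mice had 379, 404, 659, 245 and 304 TPM on LFD and 1209, 2113, 1642, 1388 and 4742 TPM on HFD (replicates 6 to 10 and 17 to 21). In both genotypes every mouse on HFD lay above every mouse on LFD, and replicate 21, an Ad-Tmem120a-/- mouse on HFD, held the highest level of all 20 mice. The ratio of the means was 5.97 in control and 5.57 in Ad-Tmem120a-/- mice, and the fitted log2 fold change (edgeR) was 2.53 (SE 0.328) and 2.49 (SE 0.381). Without replicate 21 the latter was 2.05. In whole tissue more cells of a type and more RNA per cell cannot be told apart.

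Tuba1b, the broadly expressed alpha-tubulin that neighbours Tuba1a, was also higher on HFD, with a smaller difference. Control mice had 286, 317, 230.3, 188 and 260.3 TPM on LFD and 729, 540.1, 736, 516 and 789 TPM on HFD. Ad-Tmem120a-/- mice had 249, 229.6, 342, 299 and 267 TPM on LFD and 496, 739, 501, 567 and 861 TPM on HFD. The diets did not overlap in either genotype, and the log2 fold change was 1.19 (SE 0.158) in control and 1.09 (SE 0.174) in Ad-Tmem120a-/- mice.

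Tuba1c, their close relative on the same chromosome, did not follow the other two. Control mice had 6.81, 14.6, 12.9, 16.8 and 7.14 TPM on LFD and 18.4, 17.1, 20.6, 17.2 and 15.6 TPM on HFD, whereas Ad-Tmem120a-/- mice had 12.1, 19.4, 23.8, 16.5 and 13.1 TPM on LFD and 13.3, 12.8, 14.6, 10.6 and 21.1 TPM on HFD. The control LFD group was the lowest on average and all diet ranges overlapped, with a log2 fold change of 0.38 (SE 0.272) in control, 0.23 without control replicate 5, 0.64 without control replicate 4 and 0.70 in limma with a pseudocount of 0.1, and -0.30 (SE 0.206) in Ad-Tmem120a-/- mice, -0.19 without replicate 8. The summed markers of proliferating cells were also lowest in control mice on LFD, at 37.999 ± 5.99 TPM against 75.3 ± 17.1 on HFD. They stood at 74.7 ± 25.7 and 70.99 ± 15.1 TPM in Ad-Tmem120a-/- mice on LFD and HFD. In control mice 1 of 12 markers was called higher on HFD, where 4.42% of all genes tested were. The part of proliferating cells in the level of Tuba1c was not tested.

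Tuba4a, whose protein is made without the terminal tyrosine and which is abundant in striated muscle and platelets, did not separate the diets. It stood at 8.33, 14.4, 12.2, 14.7 and 23.9 TPM in control mice on LFD and 14.5, 9.998, 14.2, 15.3 and 9.92 TPM on HFD. Among Ad-Tmem120a-/- mice it stood at 16.4, 16.3, 14.001, 13.6 and 12.6 TPM on LFD and 17.7, 18.4, 15.8, 18.98 and 9.82 TPM on HFD. The highest library, control LFD replicate 5, also had the highest sum of the 14 muscle fibre markers, 4205 TPM. The log2 fold change was -0.38 (SE 0.235) in control mice, -0.17 without that replicate, and 0.09 (SE 0.192) in Ad-Tmem120a-/- mice, 0.24 without replicate 21 and 0.02 without replicate 20. Muscle sums ranged from 71.4 to 4205 TPM on LFD and 45.6 to 126 on HFD in control mice, and from 69.1 to 1299 and 116 to 1892 in Ad-Tmem120a-/- mice. On HFD the 4 Ad-Tmem120a-/- libraries with sums of at least 462 TPM had Tuba4a above every control HFD library. Replicate 21, with a sum of 116 TPM, inside the control HFD range, had Tuba4a just below every control HFD library. It had 9.82 TPM, against 9.92 TPM in the lowest of them. Within groups muscle sum and Tuba4a did not always go together. Control HFD replicate 14 had the lowest sum of its group, 45.6 TPM, and its highest Tuba4a, 15.3 TPM. Replicate 12 had the highest sum of that group, 126 TPM, with 9.998 TPM of Tuba4a. Ad-Tmem120a-/- LFD replicate 9 had the highest sum of its group, 1299 TPM, with 13.6 TPM of Tuba4a. In control mice 10 of the 13 muscle markers tested were called lower on HFD, where 4.9% of all genes tested were. The median log2 fold change over the 13 was -5.73, against 0.655 in Ad-Tmem120a-/- mice. The control LFD sums were 119, 71.4, 342, 213 and 4205 TPM, the last in replicate 5 alone. The median sums of control mice were 213 TPM on LFD and 69.5 TPM on HFD. No fold change without replicate 5 is given for these markers. The part of muscle in the level of Tuba4a was not tested.

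**Figure D1:**
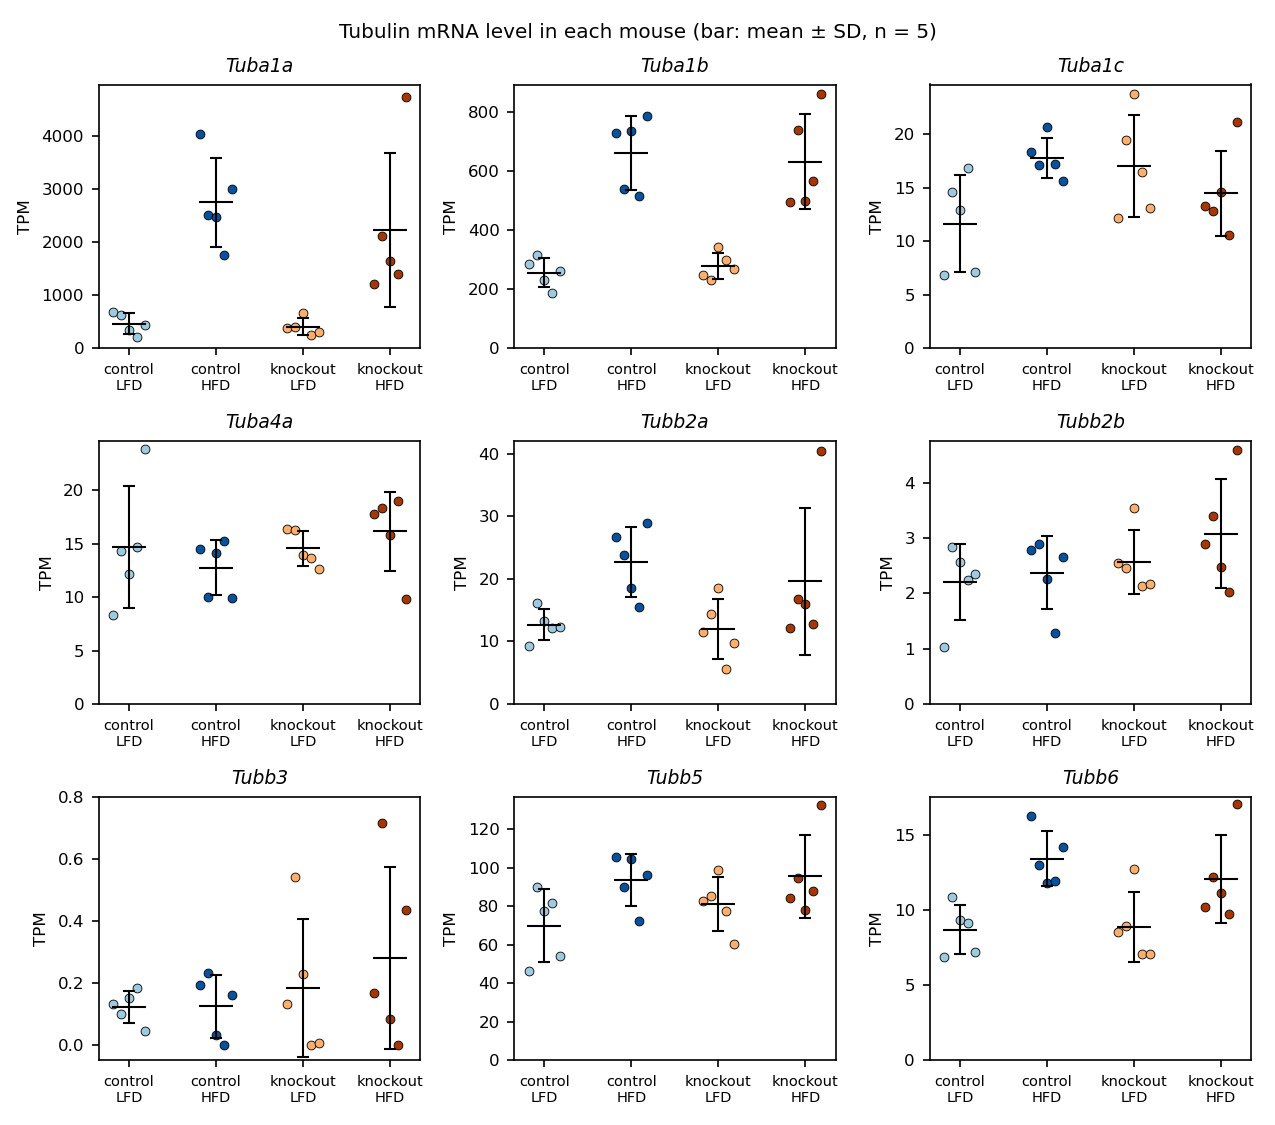
Level of each tubulin mRNA in TPM (linear axes that differ between panels) in the 4 groups. Each point is 1 mouse and each bar the mean ± SD of 5 mice. Tuba1a and Tuba1b are separated by diet in both genotypes, and replicate 21 is the highest knockout HFD point for Tuba1a, at 4742 TPM, and for Tubb2a, at 40.4 TPM.

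Among the beta-tubulins Tubb5, the widely expressed form and the most abundant of the 5 here, did not separate the diets. Control mice had 46.1, 90.1, 77.6, 81.6 and 53.9 TPM on LFD and 105, 90.1, 104, 72.2 and 96.3 TPM on HFD. Ad-Tmem120a-/- mice had 82.8, 85.1, 98.8, 77.2 and 60.2 TPM on LFD and 84.3, 94.8, 77.8, 87.6 and 133 TPM on HFD. The ranges overlapped in both genotypes, and the log2 fold change was 0.22 (SE 0.198) in control, 0.12 without control replicate 1 and 0.46 in limma with a pseudocount of 0.1, and 0.17 (SE 0.145) in Ad-Tmem120a-/- mice, 0.06 without replicate 21.

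Tubb2a, best known from neurons, was at a lower level. Its values were 9.32, 16.2, 13.3, 12.1 and 12.4 TPM in control mice on LFD and 26.7, 23.9, 18.5, 15.6 and 29.001 TPM on HFD. They were 11.4, 14.4, 18.5, 5.67 and 9.77 TPM in Ad-Tmem120a-/- mice on LFD and 12.1, 16.8, 15.97, 12.8 and 40.4 TPM on HFD. In control mice 4 of 5 HFD libraries lay above all LFD libraries, whereas in Ad-Tmem120a-/- mice replicate 21 alone did. The log2 fold change was 0.68 (SE 0.195) in control and 0.68 (SE 0.338) in Ad-Tmem120a-/- mice, where it fell to 0.27 without replicate 21.

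Tubb6, a beta-tubulin known from muscle and other non-neuronal tissues, had 6.90, 10.9, 9.34, 9.15 and 7.20 TPM in control mice on LFD and 16.3, 13.04, 11.8, 11.9 and 14.2 TPM on HFD. Levels in Ad-Tmem120a-/- mice were 8.58, 8.97, 12.7, 7.05 and 7.06 TPM on LFD and 10.2, 12.2, 11.2, 9.73 and 17.1 TPM on HFD. The control diets did not overlap, the Ad-Tmem120a-/- diets did, and the log2 fold change was 0.51 (SE 0.156) and 0.43 (SE 0.176), the latter 0.31 at its lowest, without replicate 21.

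The remaining pair was low. Tubb2b, a neuronal form, lay at 1.03 to 2.83 TPM in control LFD, 1.28 to 2.89 in control HFD, 2.12 to 3.54 in Ad-Tmem120a-/- LFD and 2.02 to 4.58 in Ad-Tmem120a-/- HFD mice. Its log2 fold change with diet was -0.09 (SE 0.302) in control mice, where the sign turned in both limma fits and without control replicate 3 or control replicate 14, and 0.21 (SE 0.249) in Ad-Tmem120a-/- mice, 0.05 without replicate 21. Tubb3, the marker beta-tubulin of neurons, was listed at 0 in some libraries and reached at most 0.714 TPM.

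Counting members by whether the diets overlapped, Tuba1a, Tuba1b and Tubb6 (3 of 9) were higher on HFD without overlap in control mice, where 8.32% of all 15311 genes tested were. In Ad-Tmem120a-/- mice Tuba1a and Tuba1b (2 of 9) were, beside 5.01% of 15705 genes. Since the members were chosen on this contrast nothing is read from these counts. The median log2 fold change of the 8 measured members was 0.44 in control and 0.32 in Ad-Tmem120a-/- mice, beside -0.04 and 0.00264 over all genes tested. By the size of its fold change Tuba1a ranked 84 of 15311 and 101 of 15705, and 2 among the 859 and 868 genes whose mean reached 100 TPM. On the scale of limma on log2(TPM + 1) the median of all genes in control mice was 0.13, against -0.04 in edgeR. The median of the 8 members in that genotype was 0.62 there, against 0.44 in edgeR.

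**Figure D2:**
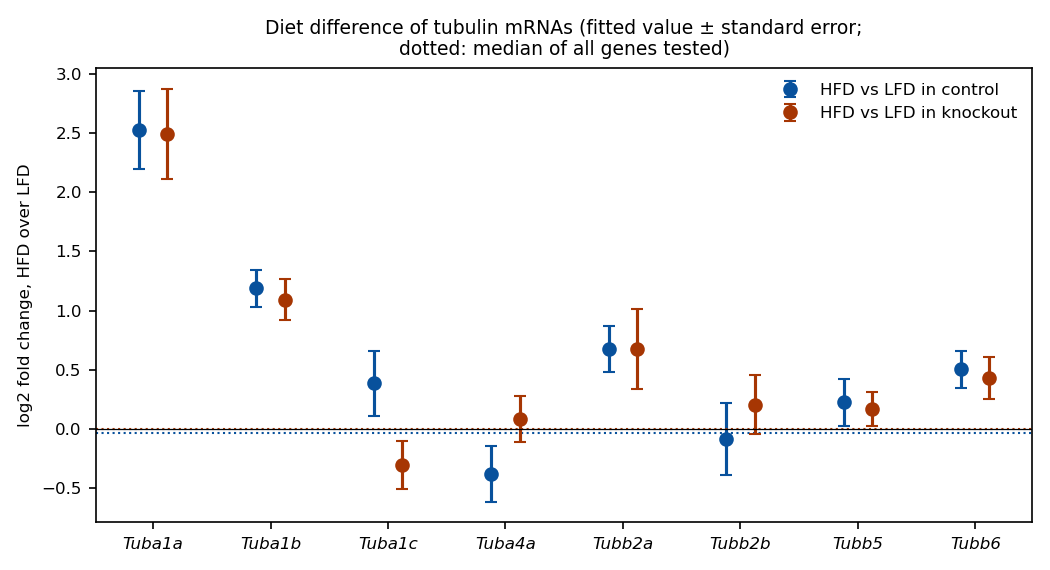
Fitted log2 fold change of HFD over LFD for the 8 tubulin genes measured, in control and knockout (Ad-Tmem120a-/-) mice, with bars of 1 standard error. Dotted lines mark the median of all genes tested. Tuba1a lies at 2.53 and 2.49 and Tuba1b at 1.19 and 1.09, and the other 6 lie between -0.38 and 0.68.

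The order of levels can be read in TPM, which is per length. In all 4 groups Tuba1a had the highest mean, followed by Tuba1b and Tubb5, and Tubb2b and Tubb3 were the lowest. On HFD the ranges of Tuba1a, Tuba1b and Tubb5 were separate from each other in both genotypes. On LFD Tuba1a and Tuba1b overlapped, with means of 460.4 ± 197 and 256 ± 49.9 TPM in control mice and 398 ± 159 and 277 ± 44.1 in Ad-Tmem120a-/- mice. Tuba1c, Tuba4a, Tubb2a and Tubb6 had means between 8.69 and 22.7 TPM, and neighbours among them overlapped in every group.

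The alpha and beta members were unequal in sum, and more so on HFD, with Tubb4b, a beta-tubulin that is not among the 9 genes and had 36.1 ± 9.86 and 58.9 ± 11.9 TPM in control mice on LFD and HFD, left out of the beta sums. The 4 alpha members summed to 743 ± 241 TPM in control LFD and 3443 ± 926 in control HFD mice, against 93.5 ± 23.2 and 132 ± 19.2 for the 5 beta members. For Ad-Tmem120a-/- mice the alpha sums were 707 ± 189.6 and 2882 ± 1596 and the beta sums 104 ± 20.6 and 130.5 ± 36.99. The ratio of alpha to beta was 8.62 ± 4.40 on LFD and 25.7 ± 3.66 on HFD in control mice, and 6.75 ± 0.829 and 21.03 ± 5.07 in Ad-Tmem120a-/- mice, with no overlap between diets. Tuba1a made up 60.05 ± 7.63% of the alpha TPM on LFD and 79.3 ± 3.48% on HFD in control mice, and 55.04 ± 8.32% and 74.5 ± 5.93% in Ad-Tmem120a-/- mice. These ratios come from mRNA and say nothing of protein.

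Which Tuba1a transcript carried the level matters for this scale. The annotation holds a full-length coding transcript (ENSMUST00000097014, 1647 bases in 4 exons) and 2 shorter ones without a coding sequence, ENSMUST00000134214 of 610 bases and ENSMUST00000136329 of 916 bases. The 3 exons of the 610-base transcript all lie inside exons 1, 3 and 4 of the full-length one, so reads from these stretches fit both. Salmon gave the 610-base transcript on average 79.7% and 77.7% of the Tuba1a TPM in control mice on LFD and HFD, and 81.9% and 78.9% in Ad-Tmem120a-/- mice. A short transcript turns a given number of reads into more TPM than a long one.

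The full-length transcript alone held 89.7 ± 44.2 TPM in control LFD and 619 ± 206 in control HFD mice, and 71.5 ± 34.2 and 485 ± 362 in Ad-Tmem120a-/- mice. The log2 ratio of HFD to LFD means was 2.79 and 2.76 for this transcript, against 2.58 and 2.48 for the gene. The rank of Tuba1a over Tuba1b depended on the split on LFD. On HFD Tuba1a stayed above Tuba1b in every library when all its counts were divided by the full length. That ratio was 1.68 to 2.56 in control and 1.14 to 2.72 in Ad-Tmem120a-/- mice. On HFD Tuba1a fell below Tuba1b on average only with the full-length transcript alone, which held 46.6% and 45.3% of the gene's counts. The full-length transcript of Tuba1a over Tuba1b had a ratio of 0.332 ± 0.120 on LFD and 0.930 ± 0.249 on HFD in control mice, and of 0.258 ± 0.108 and 0.712 ± 0.339 in Ad-Tmem120a-/- mice. The ratio of Tuba1a to Tuba1b was 1.73 ± 0.483 on LFD and 4.14 ± 0.934 on HFD in TPM in control mice, and 0.820 ± 0.290 and 2.11 ± 0.408 when gene counts were instead divided by the length of the full-length transcript. The Ad-Tmem120a-/- ratio was 1.43 ± 0.454 and 3.31 ± 1.28 in TPM, and 0.656 ± 0.205 and 1.65 ± 0.634 by full length. The share of Tuba1a in the alpha members was then 41.5 ± 9.86% on LFD and 66.3 ± 4.47% on HFD in control and 36.3 ± 7.45% and 59.6 ± 8.06% in Ad-Tmem120a-/- mice, so that it was under 50% on average on LFD. By full length the alpha to beta ratio in control mice was 6.08 ± 2.70 on LFD and 16.1 ± 1.78 on HFD.

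**Figure D3:**
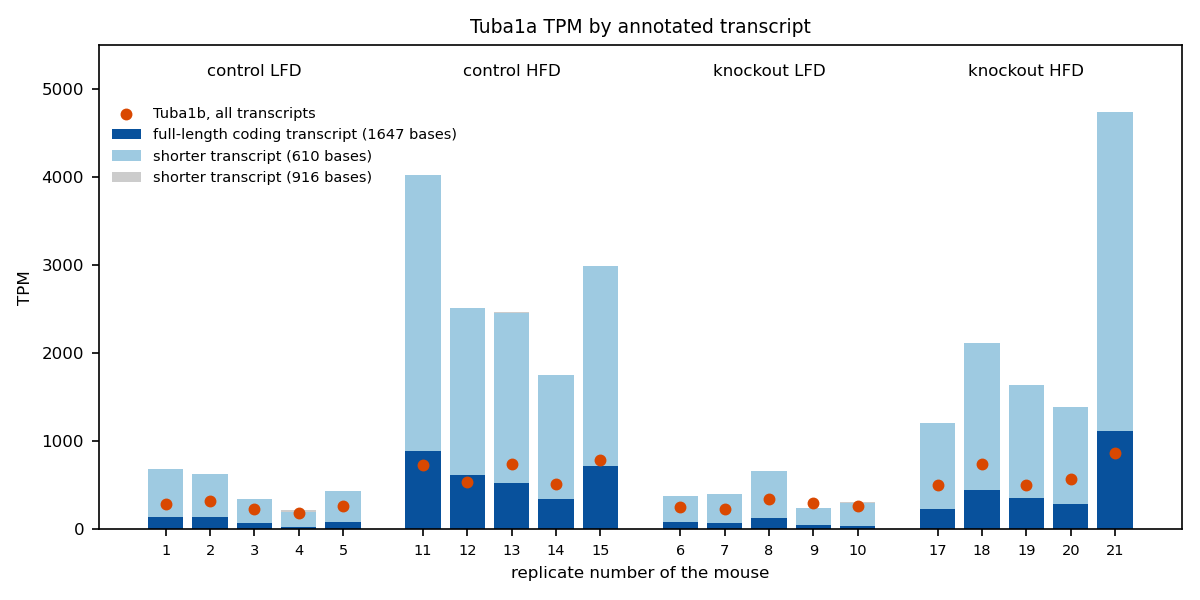
TPM of Tuba1a in each mouse, stacked by annotated transcript, with the Tuba1b level of the same mouse as an orange point. The 610-base transcript forms most of each bar, and both larger parts of the bar are taller in the HFD mice, from 1209 to 4742 TPM in all, than in the LFD mice, from 214 to 686 TPM.

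The genotype contrasts were not used to choose the genes and were tested. On HFD none of the 8 members measured was called between Ad-Tmem120a-/- and control mice by edgeR's quasi-likelihood test at an adjusted p under 0.1, none had an unadjusted p under 0.05 (4.66% of all genes did), and DESeq2 and limma called none. Of all 15228 genes tested 0.00657% were called, which was 1 gene, and DESeq2 called 100 genes with no member among them. Without replicate 21 the count over all genes was 58, 10 without control replicate 12 and 2 without control replicate 15, with no member among them. The log2 difference of Tuba1a was -0.37 (95% interval -1.11 to 0.36), with an adjusted p of 0.9993 in edgeR. Mice 17, 19 and 20 lay below every control mouse and mouse 21 above every control mouse. Without replicate 17 the difference was -0.22, and without replicate 21 it was -0.81, with an adjusted p of 0.3106, the lowest over the 17 alternatives of this result in edgeR, DESeq2 and limma.

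The other members lay between -0.31 and 0.39 on the log2 scale on HFD. Tuba1b differed by -0.08 (95% interval -0.47 to 0.31), Tubb5 by 0.02 (95% interval -0.27 to 0.32) and Tubb6 by -0.16 (95% interval -0.48 to 0.17). For Tuba1c, where 4 of 5 Ad-Tmem120a-/- mice lay below every control mouse, the difference was -0.31 (95% interval -0.66 to 0.04). Tuba4a, with 4 of 5 above every control mouse, differed by 0.38 (95% interval -0.09 to 0.84), beside the muscle sums given above. Tubb2a differed by -0.23 (95% interval -0.87 to 0.42), and by -0.63 without replicate 21, and Tubb2b by 0.39 (95% interval -0.20 to 0.98). The adjusted p was 0.9993 for each of them in edgeR.

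On LFD again no member was called by edgeR at an adjusted p under 0.1, none had an unadjusted p under 0.05 (5.11% of all genes did) and DESeq2 and limma called none, beside 0.00636% of 15717 genes called by edgeR. The log2 difference was -0.33 (95% interval -1.04 to 0.39) for Tuba1a, from -0.58 without replicate 8 to -0.13 without control replicate 1, and 0.02 (95% interval -0.28 to 0.31) for Tuba1b. Tuba1c had the largest value, 0.38 (95% interval -0.29 to 1.05), with 2 of 5 Ad-Tmem120a-/- mice above every control mouse, and ran from 0.225 without control replicate 1 to 0.64 without control replicate 4. Tubb5, at 0.08 (95% interval -0.37 to 0.53), and Tuba4a, at -0.09 (95% interval -0.57 to 0.39), lay close to 0, as did Tubb6 at -0.08 (95% interval -0.48 to 0.32) and Tubb2b at 0.10 (95% interval -0.51 to 0.71), and Tubb2a was at -0.22 (95% interval -0.77 to 0.33), from -0.40 without replicate 8 to -0.045 without replicate 9. As a fold the interval ran from 0.825 to 1.24 for Tuba1b and from 0.486 to 1.31 for Tuba1a.

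Whether diet acted differently in the 2 genotypes was tested as the interaction over all 20 libraries. No member was called by edgeR and none had an unadjusted p under 0.05 (3.6% of all genes did), DESeq2 called no member, and 0% of 15574 genes were called, against 17 genes in DESeq2. With length offsets and in both limma fits 1 member had an unadjusted p under 0.05. For Tuba1a the diet difference in Ad-Tmem120a-/- mice minus that in control mice was -0.06 (95% interval -1.12 to 1.002) and its sign turned in 8 of 26 alternatives, with -0.51 without replicate 21. Tuba1c had the largest value, -0.71 (95% interval -1.47 to 0.06), with an adjusted p of 0.9999 in edgeR and a lowest one of 0.8761, without a filter on low values, and was followed by Tuba4a at 0.45 (95% interval -0.21 to 1.11).

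**Figure D4:**
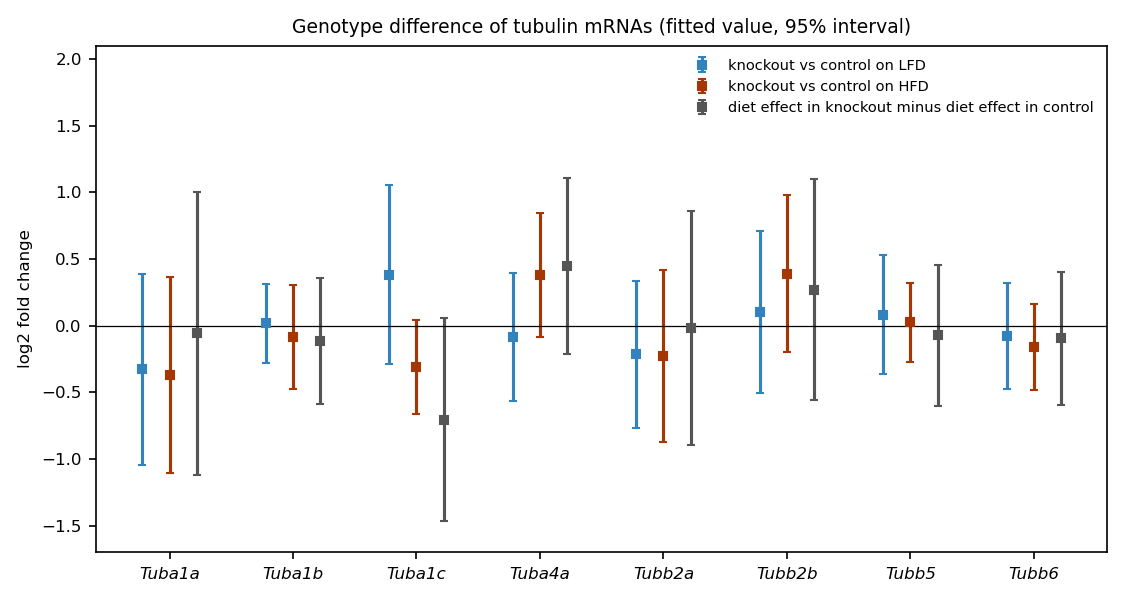
Fitted log2 difference between knockout (Ad-Tmem120a-/-) and control mice on each diet, and the difference of the diet effects, for the 8 tubulin genes measured, with 95% intervals. Every interval includes 0, and the interval of Tuba1a on HFD runs from -1.11 to 0.36.

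Markers of cell types were set beside the level of Tuba1a. Across the 20 libraries the level of Tuba1a, as log2(TPM + 1), went most closely with the summed endothelial markers among 9 marker lists. The Pearson r was 0.865, which holds the diet difference on which Tuba1a was chosen, and 0.698 once group means were subtracted. The endothelial sum and Tuba1a did not always go together. Control HFD replicate 11 had the highest Tuba1a of its group, 4030.1 TPM, and its lowest endothelial sum, 229 TPM. Control LFD replicate 1 had a sum of 234 TPM with 686 TPM of Tuba1a. For white adipocyte markers r was 0.719 and 0.174, and for macrophage markers 0.464 and 0.0722. Lymphocyte, muscle and nerve markers had -0.191, -0.35 and 0.715, and -0.505, -0.451 and 0.328 once group means were subtracted. The nerve markers summed to 31.2 ± 8.13 and 40.2 ± 4.68 TPM in control mice on LFD and HFD. In Ad-Tmem120a-/- mice they summed to 29.2 ± 5.34 and 38.02 ± 3.56 TPM. Of all genes tested 4.42% were called higher on HFD in control and 4.55% in Ad-Tmem120a-/- mice, to be read beside the marker counts here. In each genotype 1 of 8 nerve markers tested was called higher on HFD, while their median log2 fold change was -0.258 and -0.088. The 8 endothelial markers summed to 193 ± 41.8 TPM on LFD and 294 ± 53.6 on HFD in control mice, with ranges of 144 to 234 and 229 to 349.8, and 3 of 8 were called higher on HFD. In Ad-Tmem120a-/- mice the sums were 195 ± 25.6 and 269 ± 55.2, ranging from 171 to 230.5 and from 213 to 356, and 0 of 8 were called by edgeR. The 12 adipocyte markers summed to 18440.4 to 24086 TPM on LFD and 23391 to 33992 on HFD in control, and 16295 to 21943 and 21519 to 32023 in Ad-Tmem120a-/- mice, with 1 of 12 called higher on HFD in each genotype. Of 10 macrophage markers, whose sums ranged from 509 to 795 TPM on LFD and 815 to 898 on HFD in control and from 502 to 885 and 626 to 973 in Ad-Tmem120a-/- mice, 5 were called higher on HFD in control and 1 in Ad-Tmem120a-/- mice. No marker of these lists was at 0 in all libraries, and their part in the level of Tuba1a was not tested.

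Among single genes, those most like Tuba1a over the 20 libraries by Pearson r of log2(TPM + 1), out of 15574, were Supt5h, a transcription elongation factor (0.974), Paqr9, a membrane receptor of the progestin and adipoQ receptor family (0.973), Reep5, which shapes the endoplasmic reticulum (0.967), Serpina3c, a serine protease inhibitor (0.967), and Rnf11, a RING finger protein of ubiquitin ligation (0.965). All 5 had higher means on HFD in both genotypes, for example 10.8 and 30.9 TPM for Paqr9 and 44.1 and 138.9 TPM for Serpina3c in control mice. Tuba1b followed closely, at 0.958, with 11 genes more alike, while Tubb6 stood at 0.843, Tubb2a at 0.805, Tubb5 at 0.571, Tubb2b at 0.311, Tuba1c at 0.293 and Tuba4a at -0.214. Once group means were subtracted, so that differences between mice of a group remained, the order was Gm12824, a predicted gene (0.928), Paqr9 (0.902), Pea15a, a phosphoprotein that binds ERK (0.902), Ccnd2, cyclin D2 (0.895), and Irgq, an immunity-related GTPase (0.889), and Tuba1b stood at 0.783 and Tubb2a at 0.749. Genes alike after subtraction were not all higher on HFD. In control and Ad-Tmem120a-/- mice the log2 fold change was -0.29 and -0.22 for Gm12824 and -0.11 and -0.58 for Ccnd2. It was 0.28 and -0.12 for Irgq, 1.38 and 1.22 for Paqr9 and 0.85 and 0.74 for Pea15a. The Pearson r values describe the same 20 libraries, share their scaling and, before subtraction, the diet groups on which Tuba1a was chosen.

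The other 11 tubulins were mostly low. Tubb4b, a ubiquitous beta-tubulin, was the most abundant, with 36.1 ± 9.86 TPM on LFD and 58.9 ± 11.9 on HFD in control mice and 38.3 ± 10.9 and 57.6 ± 22.1 in Ad-Tmem120a-/- mice. Its log2 fold change with diet was 0.52 and 0.54, with adjusted p of 0.2021 and 0.1977 in edgeR. Tubg1, the gamma-tubulin that nucleates microtubules, had 6.76 ± 1.34 and 9.62 ± 2.62 TPM in control mice and 6.44 ± 1.30 and 7.92 ± 2.56 in Ad-Tmem120a-/- mice on LFD and HFD, and Tubd1, delta-tubulin of the centriole, had means of 3.56 to 5.58 TPM. Tubg2, Tube1, Tubb4a and Tubb1 had group means of at most 0.8004 TPM, Tuba3b and Tubal3 reached no more than 0.116 TPM, and Tuba3a was listed at 0 throughout.

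Tuba8, an alpha-tubulin of heart and skeletal muscle, was called with diet, unlike the other tubulins outside the 9 genes. It rose in Ad-Tmem120a-/- mice from 3.63 ± 0.891 to 6.49 ± 1.62 TPM, a log2 fold change of 0.80 (SE 0.224) with an adjusted p of 0.0597 in edgeR, and all 5 HFD mice lay above all LFD mice. In control mice it had 5.96 ± 3.05 TPM on LFD and 3.54 ± 1.53 on HFD, a log2 fold change of -0.92 with an adjusted p of 0.174. The diet difference in Ad-Tmem120a-/- mice minus that in control mice was 1.71 (SE 0.455) with an adjusted p of 0.9999 in edgeR. The muscle sums given for Tuba4a averaged 989.9 ± 1800.01 and 76.5 ± 30.2 TPM in control and 601 ± 524 and 963 ± 698 in Ad-Tmem120a-/- mice on LFD and HFD, and their part was not tested.

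A list of 118 genes that fold, modify, bind, sever, nucleate or move along tubulin, other tubulins included, was set beside the members. In control mice 7 were called higher and 5 lower on HFD out of 102 tested, where 9.32% of all genes were called, 4.42% higher and 4.9% lower. Among Ad-Tmem120a-/- mice 8 were higher and 2 lower out of 105, where 9.4% of all genes were called, 4.55% higher and 4.85% lower. The list's median log2 fold change was 0.11 and 0.12. The 9 genes of the gamma-tubulin ring and the 2 of tubulin mRNA autoregulation, Ttc5 and Scaper, had no call in either genotype by edgeR, and of 21 folding genes Tbcd, a tubulin cofactor, was called higher in control mice and Cct8, a chaperonin subunit, in Ad-Tmem120a-/- mice.

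The genes called in both genotypes were Vash1, Kif3b, Dync1li1, Fign and Ttll4. Vash1, a vasohibin that removes the terminal tyrosine of alpha-tubulin, rose by 0.77 (SE 0.198) in control mice, from 1.64 ± 0.518 to 3.13 ± 0.697 TPM, and by 1.06 (SE 0.274) in Ad-Tmem120a-/- mice, with adjusted p of 0.0485 and 0.0441 in edgeR. Fign, a severing enzyme, fell by 1.14 in control and fell by 1.498 in Ad-Tmem120a-/- mice, with adjusted p of 0.0377 and 0.0074, and no LFD and HFD mice of a genotype overlapped. Levels of Fign were low, from 1.68 ± 0.347 to 0.652 ± 0.305 TPM in control mice. In Ad-Tmem120a-/- mice they went from 2.005 ± 0.271 to 0.778 ± 0.343 TPM, and on HFD both means were near the filter of 0.5 TPM. Kif3b, a kinesin-2 motor, rose by 0.55 and 0.49, with adjusted p of 0.00911 and 0.0728, and Dync1li1, a light intermediate chain of the dynein motor, rose by 0.35 and 0.41, with adjusted p of 0.0629 and 0.0591. Ttll4, which adds glutamate to tubulin tails, fell by 0.39 and 0.57, with adjusted p of 0.0915 and 0.0286, and Ttll1, another glutamylase, rose by 0.95 in Ad-Tmem120a-/- mice with an adjusted p of 0.0253.

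Of 31 microtubule-associated and severing genes tested in control mice, 3 were called higher and 4 lower on HFD, where 9.32% of all genes were called. Map6, which stabilises microtubules, rose by 0.70 (adjusted p 0.0264) and Stmn1, stathmin, which binds free tubulin, rose by 0.65 (adjusted p 0.0356). Map2 fell by 0.94 (adjusted p 0.0102), Mapre3, a plus-end binding protein, by 0.72 (adjusted p 0.0507) and Dclk1, of the doublecortin family, by 0.60 (adjusted p 0.0618), all by edgeR. In the interaction 0 of 104 genes of the whole list were called, so a call in 1 genotype alone does not show a difference between genotypes. The count of 12 calls in control mice was 6 without control replicate 13, 7 without control replicate 3 and 22 without control replicate 1, and the 10 in Ad-Tmem120a-/- mice became 4 without replicate 6 or 19, 5 without replicate 7, 8 or 21, and 6 without replicate 10 or 17.

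**Figure D5:**
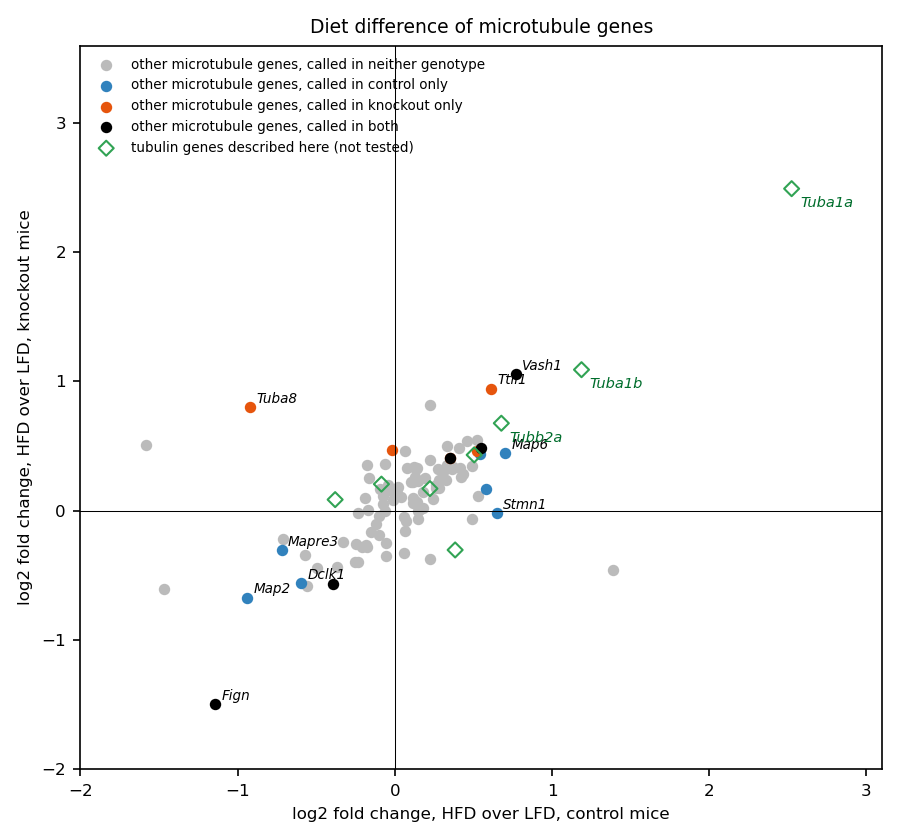
Fitted log2 fold change of HFD over LFD in control mice (horizontal axis) and in knockout (Ad-Tmem120a-/-) mice (vertical axis) for the microtubule genes measured in both, coloured by whether edgeR called them (adjusted p under 0.1), with the tubulin genes described here as open diamonds. Tuba1a, at 2.53 and 2.49, lies beyond every other gene shown, and Fign, at -1.14 and -1.498, is at the low end in knockout mice.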

How the data were processed

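Per the labels and methods, libraries of rRNA-depleted total RNA were read as pairs of 150 bases. The authors ran Salmon 0.13.1 on the Ensembl transcripts of mm9 and deposited TPM and estimated counts per transcript, without normalization between libraries. STAR 2.5.3 is also named for alignment, and whether it bears on these values is not given in the sources used here. The deposited estimated counts and TPM were summed per gene with GENCODE vM1, an annotation that held 94334 of 96533 transcripts, and the rest took 0.377% to 0.581% of the counts. Total counts of 54605101 to 92387737 per library set the precision, and no batch is labelled.

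Rounded gene sums were tested with edgeR 4.0.16 (quasi-likelihood, TMM), a filter that kept mean TPM of 0.5 or more, and a Benjamini-Hochberg adjusted p under 0.1, with the 2 groups compared in each fit and all 20 libraries for the interaction. Alternatives were DESeq2 1.42.0, limma 3.58.1 on log2(TPM + 1) and log2(TPM + 0.1), other size factors, no filter, offsets for transcript length, all libraries in 1 fit, and each library left out. The fits were tested on simulated data. Pearson r between replicates lay between 0.874 and 0.967 over 15574 genes. Each library was taken as 1 mouse, and p measures the spread between libraries. R 4.3.3 and Python 3.11.15 were used.

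The members and lists were chosen with earlier results of these data known. Named were all members, Tmem120a, the other tubulins, up to 5 called genes in each direction per diet comparison of the microtubule list, and the 5 genes most like Tuba1a. Dync1li1, Tbcd, Ttc5 and Scaper were named after their values were seen. Marker lists of lymphocytes, fat progenitors, epithelium and nerve had 0 to 2 genes called in a diet comparison. Of all genes tested 9.32% were called in control and 9.4% in Ad-Tmem120a-/- mice. The Pearson r of these lists with Tuba1a was -0.191, 0.503, 0.045 and 0.715, with proliferating cells at 0.39 and muscle at -0.35. Sequences were taken from GENCODE vM1 transcripts, and stretches of 31 bases were compared between all its coding transcripts. Some genes and sequences that these rules name are not reported here, and other parts of the study were not used.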

Additional observations from a re-analysis of the deposited data

Results flagged for a closer look

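In the Ad-Tmem120a-/- mice on HFD, replicate 21 stood apart for Tuba1a, at 4742 TPM with the next highest mouse at 2113 TPM, a gap of 0.744 of the range of the 5 mice, above the limit of 0.71. The same mouse stood apart for Tubb2a, at 40.4 TPM with the next at 16.8 TPM, a gap of 0.834 of the range. The 9 members in 4 groups made 36 sets examined, of which chance flags about 1 in 20. In this mouse the endothelial and macrophage marker sums were the highest of all 20 mice, at 356 and 973 TPM. Its adipocyte and nerve sums, 32023 and 40.9 TPM, were the highest of its group. The muscle and epithelial sums, 116 and 332 TPM, were the lowest of its group. The sums of the remaining lists lay between those of other mice of the group. The part of these cell types in the levels of Tuba1a and Tubb2a was not tested. Without it the difference of Tuba1a between the genotypes on HFD was -0.81 and that of Tubb2a -0.63 on the log2 scale, neither called.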

How the results depend on the processing

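No call of a member changed under any alternative, and 0 of 8 were called (9 without a filter) in each genotype comparison and in the interaction by edgeR, DESeq2 and limma. The diet differences of Tuba1a stayed between 2.34 and 2.74 in control mice and between 2.05 and 2.73 in Ad-Tmem120a-/- mice. Counts over all genes moved more. For genotype on HFD (1 gene) DESeq2 called 100, no filter 26, length offsets 5, limma 3 with a pseudocount of 1 and 5 with 0.1, all libraries in 1 fit 3, and leaving out 1 library 1 to 58 (58 without replicate 21, 10 without control replicate 12 and 2 without control replicate 15). For genotype on LFD (1 gene) DESeq2 called 17, limma 2 with either pseudocount, all libraries in 1 fit 2, and leaving out 1 library 1 to 2 (2 without control replicate 1). For diet in control mice (1427 genes) DESeq2 called 2205 and leaving out 1 library gave 780 to 1845, with 780 without control replicate 12, 810 without replicate 2, 827 without replicate 13, 868 without replicate 5 and 873 without replicate 3, and the share of calls that were higher on HFD was 47.4% in edgeR but 81.9% and 80.3% in the limma fits. For diet in Ad-Tmem120a-/- mice (1476 genes) DESeq2 called 2247 and leaving out 1 library gave 753 to 1355, with 753 without replicate 6 and 963 without replicate 21, and 48.4% of calls higher in edgeR and 61% and 58.8% in limma. For the interaction (0 genes) DESeq2 called 17. Of the microtubule list, DESeq2 called 19 and limma 25 and 22 in control mice (12 in edgeR), and leaving out 1 library gave 6 to 22. In Ad-Tmem120a-/- mice (10 in edgeR) length offsets gave 5, limma with a pseudocount of 0.1 gave 6, and leaving out 1 library gave 4 to 9. The causes were not tested. The values per length of the full transcript and of the full-length Tuba1a transcript alone were added after seeing the data. How reads were split between near-identical tubulins was not tested, and this limits the values of Tuba1a, Tuba1b, Tuba1c, Tubb2a and Tubb2b. Controls were littermates, but the sample titles name no litter and the groups share no replicate numbers, so no paired analysis was made.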
